A study of Mus musculus with 12 samples.

Results

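The genes described are 10 cyclic nucleotide phosphodiesterases other than the photoreceptor enzyme Pde6: Pde1a, Pde1b, Pde1c, Pde2a, Pde4a, Pde4b, Pde4d, Pde7b, Pde8b and Pde10a. They were taken by name, each symbol being matched to 1 Ensembl gene, and they are 10 of the 17579 genes of the deposited table. RNA was sequenced from R6/1 retina, wt retina, R6/1 striatum and wt striatum, with 3 libraries in each of the 4 groups. R6/1 mice carry a transgene with the first exon of human huntingtin and an expanded CAG repeat, on the C57Bl/6 background that their wild-type (wt) littermates share, and all animals were untreated males of 13 to 15 weeks. Every library came from RNA pooled over several mice, retina and striatum being taken from the same animals in both genotypes, so that n = 3 pools per group and each SD or p-value measures the spread between pools. Counts of the human transgene were not analysed here. Because the tissues were sequenced whole, fewer cells of a type and less RNA per cell cannot be told apart.

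Phosphodiesterases end cyclic nucleotide signals by hydrolysing cAMP, cGMP or both. Pde1 enzymes are switched on by calcium and calmodulin and cleave both nucleotides, Pde2a is stimulated by cGMP, Pde10a cleaves both, and Pde4, Pde7b and Pde8b enzymes are specific for cAMP. In the striatum, Pde10a and Pde1b are known as abundant enzymes of medium spiny neurons, the projection neurons in which dopamine receptors act through cAMP, whereas in the retina the cGMP of rods and cones is cleaved by Pde6.

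Estimated counts per library totalled 14070445 to 22432431. The striatal libraries numbered 2 stood apart from the others of their tissue. The mean rank correlation of wt striatum replicate 2 with its own group was 0.988, against 0.990 with the R6/1 striata, and Slc17a6, a vesicular glutamate transporter gene, had 96.3 CPM in R6/1 striatum replicate 2 and 55.3 CPM in wt striatum replicate 2, against 10.7 to 22.7 CPM in the other 4 striata. CPM are counts scaled to the same library size, with TMM factors between libraries. The tissue labels held: summed markers of rods were at 13230 to 19658 CPM in R6/1 retinas and 48752 to 56058 CPM in wt retinas, against 1.86 to 4.56 CPM in all striata, while the oligodendrocyte genes Mog and Mobp were listed at 0 in every retina.

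Promoter windows of all 10 genes were found in the RefSeq table (build GRCm38.p6), 31 windows in all, and the 250 bases before each start were searched on both strands for GGGCGG (a GC box), TGACG (the core of a cAMP response element) and TATAAA. The GC box was present in 7 of the 31 windows (22.6%), some of which overlap, against 32.7% of the 32851 windows of all genes. These windows belong to 5 genes, Pde1b, Pde2a, Pde4a, Pde8b and Pde10a, and the share of all genes with a GC box was not computed. TGACG was found in 3 of the 31 windows (Pde1a, Pde4a and Pde4b), against 17.8% of all windows, and TATAAA in 2 of the 31, both of Pde1a, against 12.4%. A match is a string of letters and not a measured binding site. The stretches around the GC boxes of the genes with the largest striatal differences between genotypes, Pde10a and Pde1b, and of Pde8b, the most abundant of the 10 in the retina per transcript length, are printed below in gene orientation, with the GC box or its complement in capitals.
Pde10a, chr17:8801574-8801629, plus strand, ending 116 bases before an internal start site of the gene: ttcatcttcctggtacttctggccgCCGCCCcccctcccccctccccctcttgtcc
Pde1b, chr15:103502883-103502976, plus strand, ending 58 bases before the start site: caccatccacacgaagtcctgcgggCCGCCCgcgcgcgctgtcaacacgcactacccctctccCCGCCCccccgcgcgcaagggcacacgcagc
Pde8b, chr13:95223109-95223229, minus strand, ending 17 bases before the nearest start site: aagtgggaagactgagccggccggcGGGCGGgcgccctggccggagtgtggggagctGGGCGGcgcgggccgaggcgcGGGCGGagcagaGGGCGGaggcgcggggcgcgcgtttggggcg
These 3 stretches overlap no annotated exon. The single GC box of Pde10a and the pair of Pde1b stand in the complementary orientation, and the Pde8b stretch holds 4 boxes within 121 bases.

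The tissues differed far more than the genotypes in the level of most of the 10 genes. In wt mice 8 of the 10 were lower in retina than in striatum (edgeR quasi-likelihood test, adjusted p under 0.05), where 38.5% of all genes tested were lower, and 1, Pde1c, was higher, where 37.8% of all genes were higher. In R6/1 mice 9 of the 10 were lower in retina than in striatum (36.9% of all genes) and Pde1c was again the 1 that was higher (36.3% of all genes). The median log2 difference of the 10 genes was −1.99 in R6/1 mice and −2.28 in wt mice, beside medians of 0.019 and −0.0044 over all genes tested. The comparisons of tissues use the same libraries as those of genotypes.

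**Figure D1:**
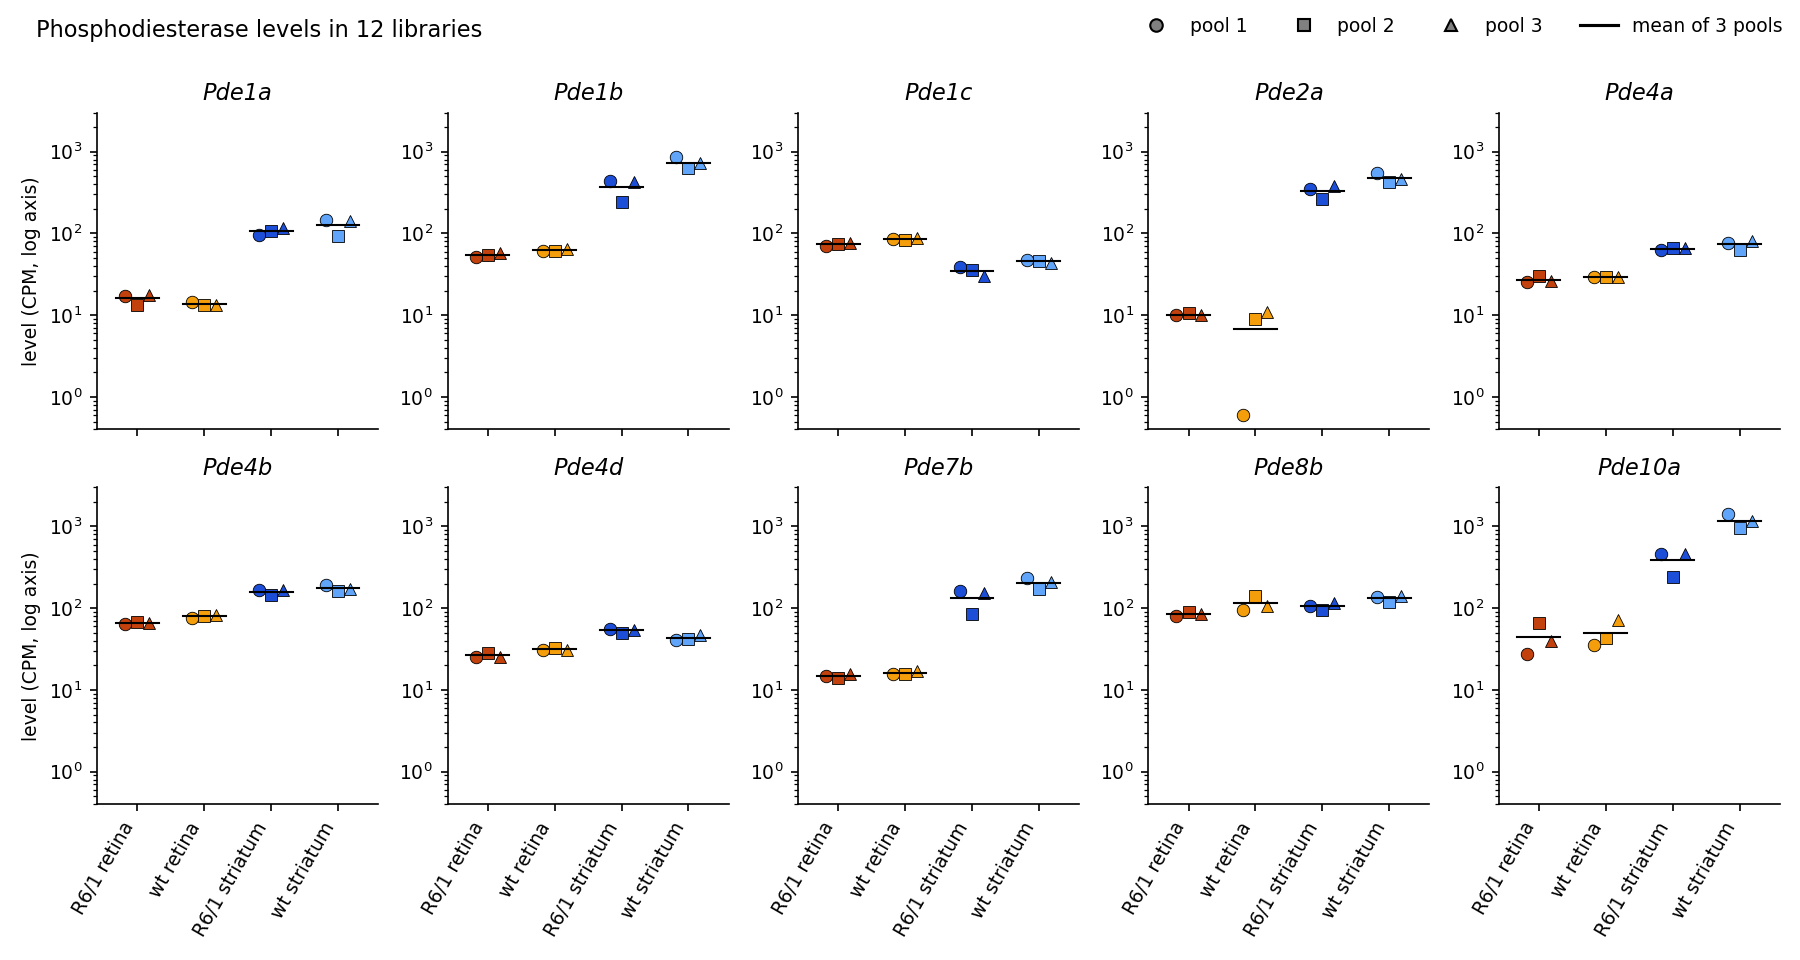
Level of each of the 10 phosphodiesterase genes in CPM (log axis) in the 12 libraries; points are pools, with a symbol for each pool number, and lines are means of 3 pools. Pde10a lies between 27.6 and 70.8 CPM in the retinas and between 242 and 1407 CPM in the striata, Pde1c is the only gene higher in retina, and the low Pde2a point is wt retina replicate 1.

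Pde10a (ENSMUSG00000023868, chromosome 17, 8525372 to 8986648, GRCm38) had 35.8, 43.2 and 70.8 CPM in wt retinas, against 1407, 951 and 1161 CPM in wt striata. The groups were far apart, and the log2 difference was −4.55 (SE 0.33, adjusted p = 4.98e-05). In R6/1 mice Pde10a had 27.6, 65.9 and 39.3 CPM in retinas, against 465, 242 and 466 CPM in striata (log2 difference −3.13, SE 0.48, adjusted p = 0.00375). Its retinal pools were uneven, with coefficients of variation of 44.4% in R6/1 retinas and 36.9% in wt retinas.

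Pde1a, Pde1b and Pde7b shared this retina-low pattern. Pde1b (ENSMUSG00000022489, chromosome 15, 103503034 to 103530052) had 61.4, 61.4 and 64.8 CPM in wt retinas, against 861, 623 and 720 CPM in wt striata (−3.56 on the log2 scale, SE 0.12, adjusted p = 3.98e-10). The log2 differences between wt retina and wt striatum were −3.66 (SE 0.12) for Pde7b (ENSMUSG00000019990, chromosome 10, 20398004 to 20725078) and −3.22 (SE 0.19) for Pde1a (ENSMUSG00000059173, chromosome 2, 79834453 to 80129458). Within the Pde1 family the opposite held for Pde1c (ENSMUSG00000004347, chromosome 6, 56069804 to 56569103), with 86.2, 83.1 and 87.9 CPM in wt retinas, against 47.2, 46.6 and 43.8 CPM in wt striata (log2 difference 0.90, SE 0.07, adjusted p = 1.69e-07).

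The Pde4 genes differed less between tissues. The log2 differences between wt retina and wt striatum were −1.34 (SE 0.09) for Pde4a (ENSMUSG00000032177, chromosome 9, 21165714 to 21213248), −1.15 (SE 0.08) for Pde4b (ENSMUSG00000028525, chromosome 4, 102087543 to 102607259) and −0.47 (SE 0.08, adjusted p = 0.000249) for Pde4d (ENSMUSG00000021699, chromosome 13, 108449948 to 109953461). Pde8b (ENSMUSG00000021684, chromosome 13, 95024454 to 95250336) had 93.9, 142 and 108 CPM in wt retinas, against 136, 120 and 139 CPM in wt striata. These ranges overlapped and the difference did not pass the test (−0.20, 95% interval −0.54 to 0.14, adjusted p = 0.238). It passed without wt retina replicate 2 (−0.38, adjusted p = 0.00535). In R6/1 mice Pde8b had 81.1, 90.5 and 84.4 CPM in retinas, against 108, 93.8 and 116 CPM in striata, and was lower in retina (−0.30, SE 0.08, adjusted p = 0.00792, but 0.0523 in 1 fit of the 12 libraries).

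Pde2a (ENSMUSG00000110195, chromosome 7, 101421691 to 101512827) had the largest difference between tissues but is uncertain in the retina. Its level was 0.603, 8.85 and 10.9 CPM in wt retinas, against 547, 424 and 468 CPM in wt striata. The low value rests on 9 counts in wt retina replicate 1, against 121 and 195 counts in the other wt retinas and 183, 205 and 179 counts in R6/1 retinas. Another annotated protein-coding gene, Gm45837 (ENSMUSG00000030653, 101410886 to 101512819), overlaps Pde2a on the same strand, and it had 151 counts in wt retina replicate 1, 32 counts in R6/1 striatum replicate 1 and 0 in the other 10 libraries. With the counts of both summed, the level was 10.7, 8.85 and 10.9 CPM in wt retinas and no retinal pool stood apart. The log2 difference between wt retina and wt striatum was −6.12 (SE 0.71, adjusted p = 0.00115) as deposited and −5.55 (SE 0.13, adjusted p = 1.59e-11) for the sum, an alternative added after the data were seen.

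The order of abundance per length differed between tissues. Levels were divided by the length of the longest annotated transcript, since longer transcripts give more counts. In the retina Pde8b came first, with 20.1 ± 1.13 CPM per kilobase in R6/1 and 27.1 ± 5.88 CPM per kilobase in wt (mean ± SD, n = 3 pools), followed in both genotypes by Pde4b, Pde1b and Pde1c, none of these overlapping its neighbour. Pde2a was last, at 2.41 ± 0.0819 CPM per kilobase in R6/1 retina and 1.61 ± 1.30 CPM per kilobase in wt retina. The wt mean includes the low deposited value of wt retina replicate 1 (0.143 CPM per kilobase), without the counts of Gm45837.

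In the striatum Pde1b came first in both genotypes and Pde1c last. In R6/1 striatum the next were Pde2a at 78.4 ± 14.1 and Pde10a at 50.3 ± 16.6 CPM per kilobase, behind Pde1b at 87.6 ± 26.5. In wt striatum the order was Pde1b at 174 ± 28.4, Pde10a at 151 ± 29.4 and Pde2a at 114 ± 14.8 CPM per kilobase. Pde2a and Pde10a thus changed places, although in wt striatum their ranges overlapped, as did those of Pde1b with the gene after it in both genotypes. The 10 genes together reached 359 ± 69.6 CPM per kilobase in R6/1 striatum and 610 ± 90.9 in wt striatum, and 83.4 ± 4.93 in R6/1 retina and 98.0 ± 8.24 in wt retina. Pde10a made up 13.7% ± 2.22 of that sum in R6/1 striatum and 24.6% ± 1.13 in wt striatum. With the union of all exons in place of the longest transcript, Pde1b, Pde10a and Pde2a kept their ranks in both striatal groups, but Pde1b came before Pde4b in the retina. In R6/1 retina Pde7b was then last, at 1.19 CPM per kilobase, behind Pde2a at 1.65.

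**Figure D2:**
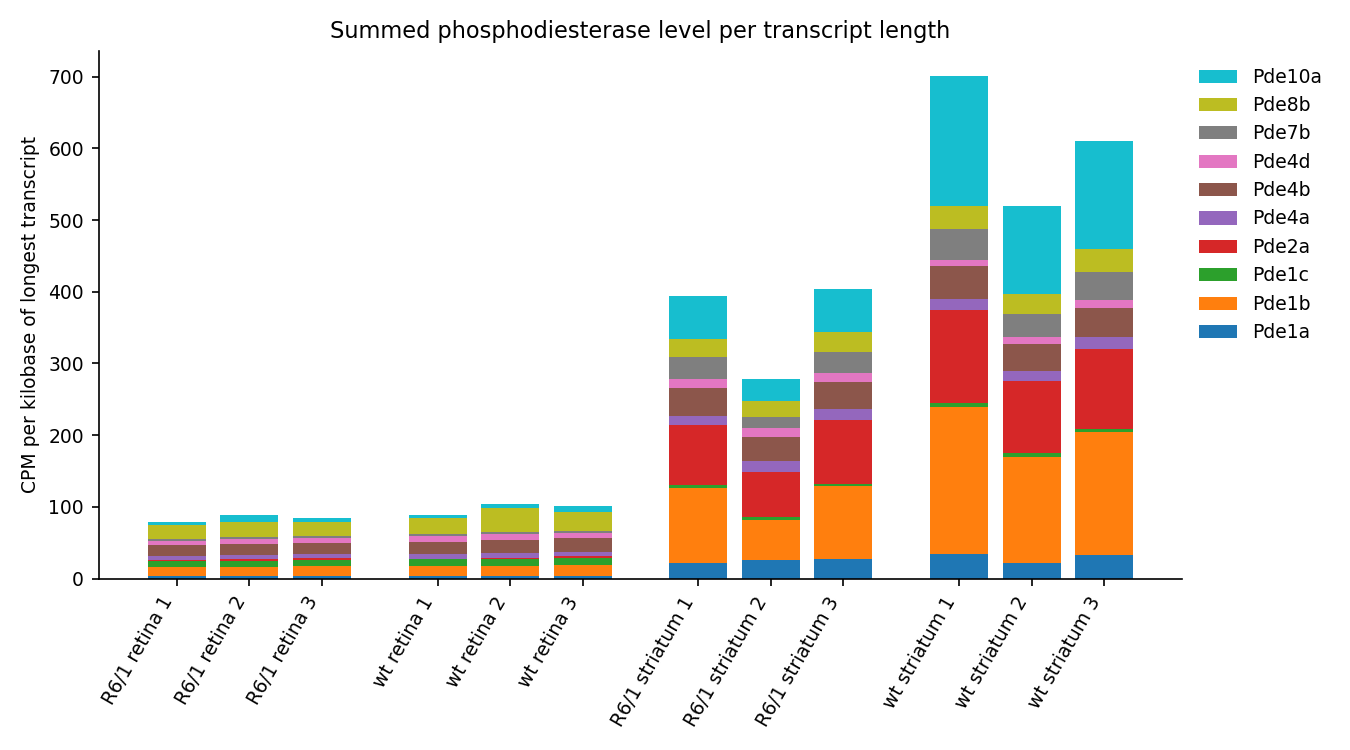
Level of the 10 genes per kilobase of longest transcript (CPM per kilobase), stacked for each of the 12 libraries. The stacks sum to 278 to 403 in the R6/1 striata and 519 to 701 in the wt striata, and the mean height of the Pde10a block is 50.3 in R6/1 striatum and 151 in wt striatum.

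In the striatum the comparison of genotypes asked which enzymes differed in mice with the transgene. Of the 10 genes, 9 had a negative log2 fold change in R6/1 relative to wt and 1, Pde4d, a positive one, with a median of −0.35 beside 0.01 over all genes. None of the 10 passed in edgeR without a pairing of pools, in which 1.45% of all genes passed in either direction. At an unadjusted p under 0.05 there were 6 of the 10 (5 lower and 1 higher) and 3318 of the 16728 genes tested. Equal replicate numbers deviated together between R6/1 and wt striata, so the numbers were also fitted as a block. For number 3 an unequal number came close (r = 0.240, against 0.257 for the equal number). The labels do not say what a number stands for, and the pairing was read from these same counts, so calls with the block rest on that reading. With the block, 6 of the 10 were lower in R6/1 striatum (Pde10a, Pde1b, Pde1c, Pde2a, Pde7b and Pde8b), where 7.11% of all genes were lower, and Pde4d was higher, where 2.83% were higher. DESeq2 called 4 of the 10 lower (Pde10a, Pde1b, Pde1c and Pde2a), where it called 4.81% of all genes lower, and 6 with the block, where it called 5.23%. The CPM of the genotypes did not overlap for 7 of the 10, against 25.6% of all genes.

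Pde10a differed most. It had 465, 242 and 466 CPM in R6/1 striata, against 1407, 951 and 1161 CPM in wt striata, so that every R6/1 pool lay below every wt pool. The log2 fold change was −1.59 (SE 0.29, adjusted p = 0.0651) without the block and −1.63 (SE 0.13, adjusted p = 0.00243) with it. Between pools of equal number, R6/1 had 0.331, 0.254 and 0.401 times the wt level.

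Pde1b had 439, 240 and 428 CPM in R6/1 striata, against 861, 623 and 720 CPM in wt striata, again without overlap. Its log2 fold change was −0.99 (SE 0.25, adjusted p = 0.109), or −1.03 (SE 0.13, adjusted p = 0.00818) with the block. Its relatives behaved differently from it in size: Pde1c had 39.0, 36.1 and 30.1 CPM in R6/1 striata, against 47.2, 46.6 and 43.8 CPM in wt striata (−0.39, SE 0.10, adjusted p = 0.0889, or −0.39, adjusted p = 0.00737 with the block). For Pde1a the pools overlapped, with 95.3, 108 and 115 CPM in R6/1 striata, against 147, 93.1 and 142 CPM in wt striata (−0.26, SE 0.17, adjusted p = 0.459, or 0.541 with the block). The differences among the 3 Pde1 genes were not tested against each other.

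Pde2a, the cGMP-stimulated enzyme, had 349, 264 and 379 CPM in R6/1 striata, against 547, 424 and 468 CPM in wt striata. The log2 fold change was −0.54 (SE 0.15, adjusted p = 0.114), or −0.55 (SE 0.08, adjusted p = 0.00243) with the block, and adding the counts of Gm45837 gave −0.53 and −0.54. The groups did not overlap.

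Among the cAMP-specific enzymes, Pde7b had 164, 84.9 and 153 CPM in R6/1 striata, against 231, 170 and 208 CPM in wt striata (−0.60, SE 0.26, adjusted p = 0.278, or −0.65, adjusted p = 0.0348 with the block). Pde8b had 108, 93.8 and 116 CPM in R6/1 striata, against 136, 120 and 139 CPM in wt striata (−0.31, SE 0.10, adjusted p = 0.124, or −0.32, adjusted p = 0.00604 with the block). Both had every R6/1 pool below every wt pool. Pde4d went the other way, with 55.4, 50.2 and 54.9 CPM in R6/1 striata, against 40.6, 42.2 and 47.5 CPM in wt striata (0.30, SE 0.08, adjusted p = 0.103, or 0.30, adjusted p = 0.0255 with the block). Pde4a and Pde4b overlapped between genotypes and passed in neither fit, with log2 fold changes of −0.19 (SE 0.09) and −0.15 (SE 0.09) without the block.

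**Figure D3:**
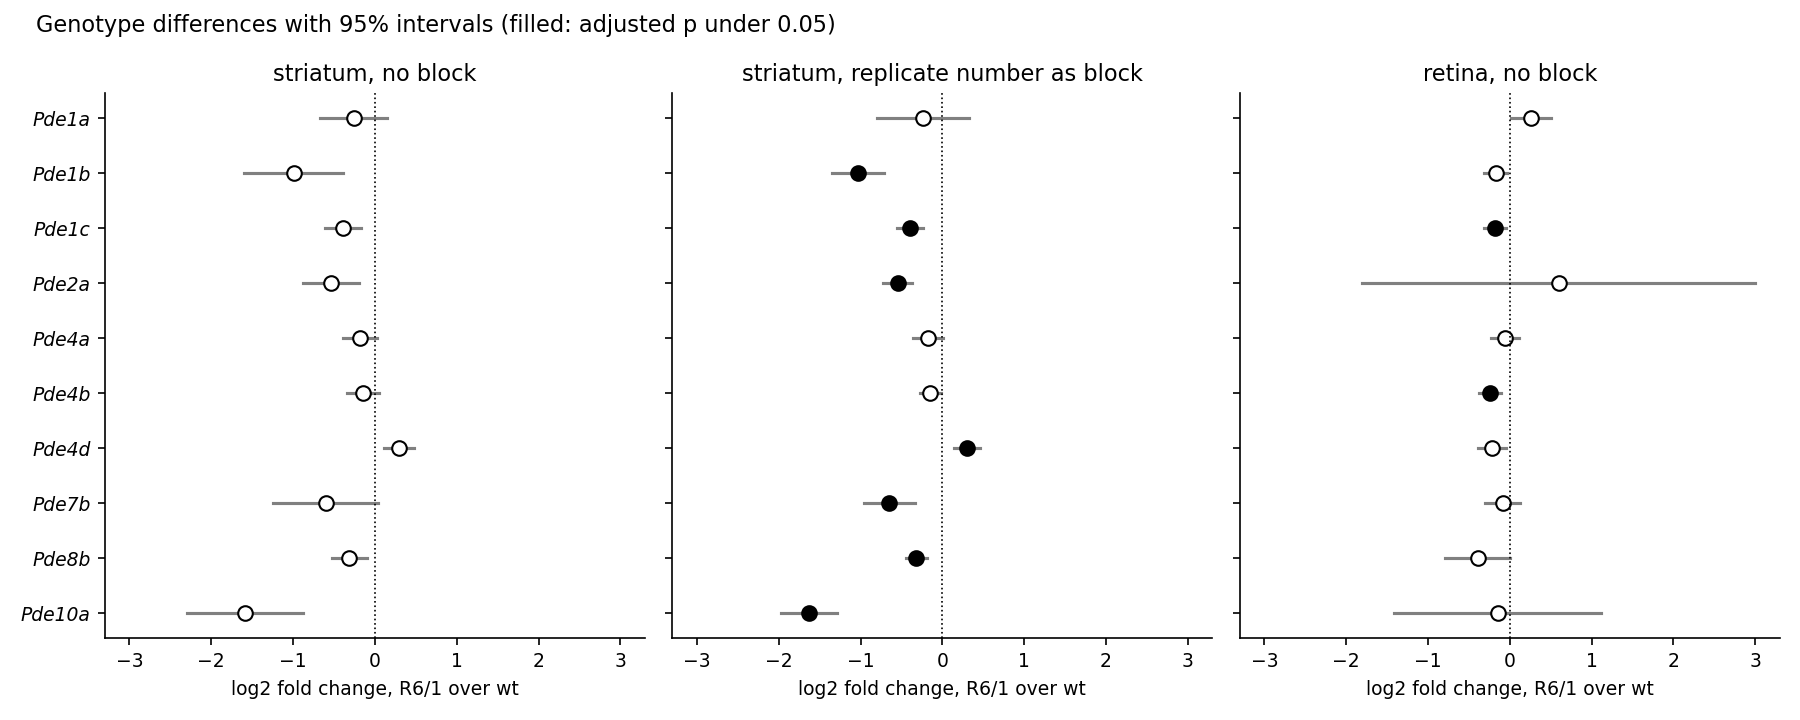
Log2 fold change of R6/1 over wt for the 10 genes with 95% intervals, in striatum without the replicate block, in striatum with it, and in retina; filled points passed at an adjusted p under 0.05. The striatal estimates hardly move with the block (Pde10a −1.59 and −1.63) while most intervals narrow, and in the retina only Pde4b and Pde1c are filled.

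Single libraries weighed on these striatal calls. Without wt striatum replicate 2, Pde1a (adjusted p = 0.0130), Pde4a (0.0347) and Pde8b (0.0310) were called lower without the block, and without R6/1 striatum replicate 2, Pde10a (0.0158) and Pde1b (0.0340) were. Over all genes 7.25% were called lower without wt striatum replicate 2 and 1.31% without R6/1 striatum replicate 2, beside 1.32% with all libraries. Without both libraries numbered 2, 8 of the 10 were lower, where 10.2% of all genes were lower, and Pde4d was higher, where 6.21% were higher. Only pools 1 and 3 of each genotype remained in that fit. Pde10a was then at −1.46 (SE 0.09, adjusted p = 3.36e-06) and Pde4b alone did not pass. The library numbered 2 was the lowest of its group for 7 of the 10 genes among R6/1 striata and for 8 of the 10 among wt striata. The same count was not made over all genes, so it cannot be read as particular to these 10.

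**Figure D4:**
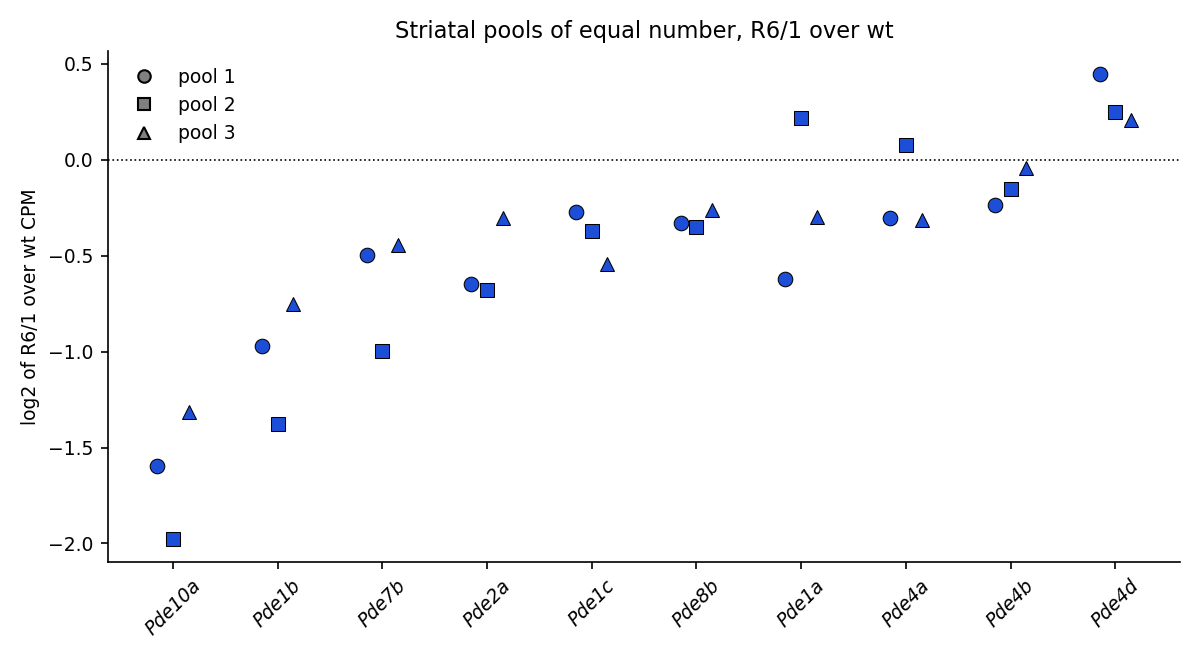
Log2 ratio of R6/1 over wt CPM in striatum for pools of equal number, 1 point for each of the 3 numbers, with genes ordered by their mean. All 3 ratios are below 0 for 7 genes and above 0 for Pde4d, while Pde1a and Pde4a have a positive ratio in pool 2.

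Markers of medium spiny neurons moved with these genes. Their summed level over 8 genes (Ppp1r1b, Drd1, Drd2, Adora2a, Penk, Tac1, Rgs9 and Bcl11b) was 1359, 721 and 1306 CPM in R6/1 striata, against 3235, 2349 and 2587 CPM in wt striata, with 1 of the 8 called lower without the block and 7 of the 8 with it. Markers of striatal interneurons, the local neurons of the tissue, summed to 115.7, 105.9 and 114.8 CPM in R6/1 striata, against 205.2, 151.2 and 206.9 CPM in wt striata, with 2 of the 5 lower without the block and 4 of the 5 with it. Markers of cortical excitatory neurons, the tissue next to the striatum, summed to 239.7, 320.5 and 350.3 CPM in R6/1 striata, against 601, 249 and 679.7 CPM in wt striata, with 0 of the 5 called by edgeR with or without the block (0 at an unadjusted p under 0.05) and 0 by DESeq2. Over all genes 1.32% were called lower in edgeR without the block and 7.11% with it. The part of these cell types in the phosphodiesterase differences was not tested.

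Levels were also set against the summed medium spiny neuron markers, a scale chosen after the values were seen. That sum was itself lower in R6/1 striata, so a gene with equal CPM in both genotypes reads higher in R6/1 on this scale. Pde10a stood at 34.2%, 33.6% and 35.7% of that sum in R6/1 striata, against 43.5%, 40.5% and 44.9% in wt striata. R6/1 striatum replicate 2, the lowest for Pde10a in CPM, did not stand apart from its group on this scale. Pde1b stood at 32.3%, 33.4% and 32.8% in R6/1 striata, against 26.6%, 26.5% and 27.8% in wt striata, and Pde7b at 12.1%, 11.8% and 11.7% in R6/1 striata, against 7.14%, 7.23% and 8.04% in wt striata. Pde2a stood at 25.7%, 36.7% and 29.0% in R6/1 striata, against 16.9%, 18.1% and 18.1% in wt striata. These ratios are descriptions and were not tested.

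**Figure D5:**
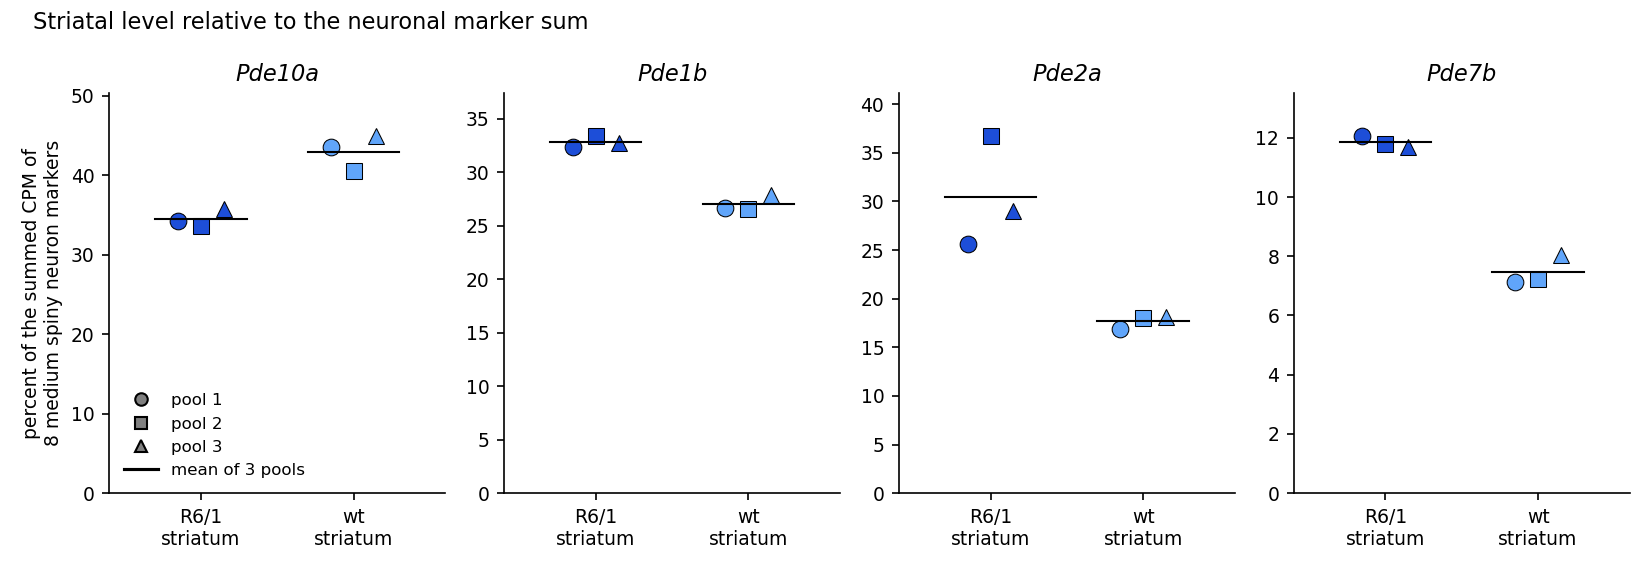
Level of Pde10a, Pde1b, Pde2a and Pde7b as a percentage of the summed CPM of 8 medium spiny neuron markers in the 3 R6/1 and 3 wt striata; lines are means. Pde10a is lower in R6/1 (33.6% to 35.7%, against 40.5% to 44.9% in wt) and the other 3 genes are higher, on a marker sum that is itself lower in R6/1. The phosphodiesterases described but not shown here are higher in R6/1 too.

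In the retina 2 of the 10 genes fell in R6/1 relative to wt, Pde4b and Pde1c, where 12.7% of all genes were called lower, and none was higher, where 9.58% of all genes were (1 at an unadjusted p under 0.05, and none in DESeq2, which called only Pde4b lower). The CPM of the genotypes did not overlap for 5 of the 10, against 38.4% of all genes. Pde4b had 63.6, 67.0 and 65.9 CPM in R6/1 retinas, against 75.2, 79.7 and 82.5 CPM in wt retinas (log2 fold change −0.24, SE 0.06, adjusted p = 0.0113). Pde1c had 70.3, 74.3 and 77.3 CPM in R6/1 retinas, against 86.2, 83.1 and 87.9 CPM in wt retinas (−0.18, SE 0.06, adjusted p = 0.0456). Both changes were small but larger than the spread between pools.

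With library totals in place of TMM factors, neither call held: Pde4b was at −0.13 (adjusted p = 0.134) and Pde1c at −0.07 (adjusted p = 0.428), while the median of all genes was 0.13 on that scale and 0.01 with TMM factors. With any 1 of the 6 libraries left out, Pde1c did not pass (adjusted p 0.0549 to 0.143), and Pde4b did not pass without wt retina replicate 3 (adjusted p = 0.0590).

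The other retinal values did not pass. Pde8b had 81.1, 90.5 and 84.4 CPM in R6/1 retinas, against 93.9, 142 and 108 CPM in wt retinas, without overlap (−0.39, SE 0.16, adjusted p = 0.149), and it was called lower in 6 of 16 alternatives: without wt retina replicate 1 (adjusted p = 0.00766), with limma-voom (0.0477), non-robust spread (0.0490) or 1 fit of the 12 libraries (0.0473), and with the replicate block in edgeR (0.00460) or DESeq2 (0.00281), although the retinal numbers did not pair. Pde4d had 25.3, 28.3 and 25.5 CPM in R6/1 retinas, against 30.8, 32.6 and 30.6 CPM in wt retinas (−0.22, SE 0.08, adjusted p = 0.0590), and it passed without R6/1 retina replicate 2 (adjusted p = 0.0307), in 1 fit of the 12 libraries (0.0493) and with the block (0.0469). Pde1b had 51.3, 54.1 and 57.6 CPM in R6/1 retinas, against 61.4, 61.4 and 64.8 CPM in wt retinas (−0.17, SE 0.07, adjusted p = 0.0741).

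Pde1a and Pde2a had positive retinal estimates. Pde1a was at 17.1, 13.4 and 17.6 CPM in R6/1 retinas, against 14.4, 13.3 and 13.4 CPM in wt retinas (0.26, SE 0.11, adjusted p = 0.119, but 0.0153 without R6/1 retina replicate 2 and 0.0198 with library totals). Library totals called 3886 of the 16582 genes tested higher, against 1588 with TMM factors. For Pde10a the retinal groups overlapped and the error was large (−0.15, SE 0.46, adjusted p = 0.868). Pde2a was at 0.60 (SE 0.88) as deposited and at 0.03 (95% interval −0.23 to 0.28) when summed with Gm45837. Pde4a (−0.06, 95% interval −0.24 to 0.11) and Pde7b (−0.09, −0.30 to 0.12) had narrow intervals around small estimates. Photoreceptor markers moved with genotype in these retinas: all 6 rod markers were lower, and all 5 cone markers, which summed to 54.0 to 66.0 CPM in R6/1 retinas and 813 to 922 CPM in wt retinas. Other retinal neurons moved too, with all 5 bipolar cell markers, all 4 amacrine cell markers and 3 of 4 ganglion cell markers lower in R6/1, while 2 of 4 astrocyte and 2 of 5 microglia markers were higher. Of 4 Müller glia markers, 1 was lower and 1 higher. Over all genes 12.7% were lower and 9.58% higher. The part of these cell types in the phosphodiesterase values was not tested.

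Whether the R6/1 effect on a gene was unequal in the tissues was tested in a fit of the 12 libraries. Of the 10 genes only Pde4d passed, with a retinal minus striatal difference of −0.55 (SE 0.11, adjusted p = 0.00779), where 4.86% of all genes passed as lower. Its R6/1 over wt ratios between pools of equal number were 0.822, 0.867 and 0.833 in retina and 1.36, 1.19 and 1.15 in striatum. For Pde10a the log2 fold change in retina minus that in striatum was 1.41 (95% interval 0.12 to 2.69), which did not pass (adjusted p = 0.177). Pde1b was at 0.79 (SE 0.29, adjusted p = 0.130) and passed in DESeq2 (adjusted p = 0.0201), without R6/1 striatum replicate 2 (adjusted p = 0.0297), and with the number as a block within each tissue (0.83, adjusted p = 0.00441). It did not pass with the number as a block within each genotype. The block within tissue takes the retinal numbers as paired, although they did not pair. Pde1a, at 0.48 (SE 0.24, adjusted p = 0.254), passed without wt striatum replicate 2 (adjusted p = 0.00662). Pde2a summed with Gm45837 was at 0.53 (adjusted p = 0.145), and passed with the block within each tissue (0.54, adjusted p = 0.0275). The sum was not fitted with the block within each genotype.

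The 8 remaining phosphodiesterases outside Pde6 in the list (Pde3a, Pde3b, Pde4c, Pde5a, Pde7a, Pde8a, Pde9a and Pde11a) were measured too. In the striatum none passed in edgeR without the block (1 at an unadjusted p under 0.05) or in DESeq2, and with the block Pde9a, a cGMP-specific enzyme, was the 1 of the 8 that was lower (7.11% of all genes), with 11.7, 14.6 and 10.9 CPM in R6/1 striata, against 16.7, 16.9 and 15.4 CPM in wt striata (−0.40 on the log2 scale, SE 0.11, adjusted p = 0.0396). In the retina 2 of the 8 were lower and 1 was higher, beside 12.7% and 9.58% of all genes. Pde3a, an enzyme inhibited by cGMP, fell to 62.5, 64.4 and 71.1 CPM in R6/1 retinas, against 107, 101 and 103 CPM in wt retinas (−0.62, SE 0.07, adjusted p = 2.35e-06). Pde8a was also lower in R6/1 retina (−0.26, SE 0.09, adjusted p = 0.0448). Pde3b was higher, with 9.55, 13.0 and 7.53 CPM in R6/1 retinas, against 7.36, 6.51 and 5.61 CPM in wt retinas (0.66, SE 0.19, adjusted p = 0.0210). Pde3a differed between tissues in its genotype effect (−0.82, SE 0.14, adjusted p = 0.00323), its striatal estimate being 0.16 (SE 0.14).

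Enzymes that make cyclic nucleotides were compared next. Of 10 adenylyl cyclases, none passed in striatum in edgeR without the block (3 at an unadjusted p under 0.05) and 2 were lower with it, where 7.11% of all genes were, while DESeq2 called Adcy5 and Adcy1 lower. Adcy5, the main adenylyl cyclase of striatal neurons, had 433, 279 and 437 CPM in R6/1 striata, against 978, 686 and 847 CPM in wt striata (−1.13, SE 0.21, adjusted p = 0.0552, or −1.14, adjusted p = 1.49e-05 with the block), and Adcy9 was at −0.41 with the block (adjusted p = 0.00657). In the retina 3 of the 10 were lower in R6/1, Adcy6 (−0.59, SE 0.06), Adcy1 (−0.34, SE 0.08) and Adcy2 (−0.21, SE 0.07), and none higher, beside 12.7% and 9.58% of all genes.

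Of the guanylyl cyclases, 9 were tested in striatum and 8 in retina. None passed in striatum in edgeR without the block (2 at an unadjusted p under 0.05), and DESeq2 called Npr2 higher. With the block Gucy1a1, a subunit of the nitric oxide receptor, was lower (−0.31, adjusted p = 0.00693). The natriuretic peptide receptor Npr2 (0.39, adjusted p = 0.0159) and Gucy2f (0.90, adjusted p = 0.0484) were then higher. With the block 1 of the 9 was thus lower and 2 higher, beside 7.11% and 2.83% of all genes. The Gucy2f call rests on low striatal levels, with 2.85, 4.001 and 3.02 CPM in R6/1 striata, against 0.90, 2.80 and 1.72 CPM in wt striata. In the retinas Gucy2f had 413 to 616 CPM. In the retina 2 of the 8 were lower, the photoreceptor cyclases Gucy2e (−0.88, SE 0.08) and Gucy2f (−0.49, SE 0.06), and none was higher, beside 12.7% and 9.58% of all genes.

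Of 16 effectors of cyclic nucleotides, none passed in striatum in edgeR without the block (2 at an unadjusted p under 0.05) or in DESeq2, and 1 was lower with the block, Rapgef4, a cAMP-activated exchange factor (−0.25, adjusted p = 0.0243), where 7.11% of all genes were lower. In the retina 3 of the 16 were lower, Prkar2a (−0.32), Prkg2 (−0.84) and the channel gene Hcn4 (−0.38), and 2 were higher, Prkar1a (0.21) and Prkacb (0.19), subunits of protein kinase A, the last of these being named after its value was seen; 12.7% of all genes were lower and 9.58% higher. Of the 11 anchors and partners described, none passed in striatum in edgeR without the block (4 at an unadjusted p under 0.05), DESeq2 called 2 lower (Akap5 and Akap9), and 3 were lower with the block, beside the 7.11% of all genes: the anchor genes Akap5 (−0.61, adjusted p = 0.00113) and Akap9 (−0.31, adjusted p = 0.0197), and Calm2 (−0.30, adjusted p = 0.0122), which encodes calmodulin, the activator of Pde1 enzymes. In the retina 1 of the 11 was lower, Akap5 (−0.82, adjusted p = 0.00273), and 1 was higher, Akap7 (0.23, adjusted p = 0.0126), shares below the 12.7% and near the 9.58% of all genes.

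Genes whose log2 CPM ran most like that of Pde10a over the 12 libraries, among 14153 genes with a mean of at least 1 CPM, were Tmod1 (Pearson r = 0.992), Wfs1 (0.991) and Scn4b (0.991). For Pde1b they were Kcnab1 (0.999), Jcad (0.998) and Hpca (0.997), and for Pde4b Caln1 (0.998), Syt6 (0.998) and Chrm1 (0.997). Pde8b, which differed little between tissues, had no close match, its highest being Sgtb (0.912), Spry2 (0.898) and Zswim6 (0.893). The 12 libraries share their 2 tissues, which set most of each correlation.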

How the data were processed

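RNA was sequenced from 12 libraries, 3 pools for each genotype and tissue. Per the labels, the authors made stranded mRNA libraries and named CASAVA, Trimmomatic and Salmon with GRCm38 (mm10). Versions, and how transcripts were summed to genes, are not given in the sources used here. The deposited table holds expected counts (estimated counts per gene, already whole numbers, not normalized) for 17579 genes, of which 17527 matched a symbol by Ensembl ID, and gene models came from GENCODE M21 (GRCm38). Salmon assigns reads shared by overlapping genes by an estimate, which bears on Pde2a. Columns left unmapped numbered 0. No replicates were the same library, since counts differed beyond sampling noise in every pair.

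Counts were compared with edgeR 4.0.16 in R 4.3.3 (TMM factors, robust quasi-likelihood F-test, genes with at least 10 counts over the libraries compared, for the difference between tissues in each tissue). All genes tested entered the Benjamini-Hochberg adjustment, with calls made at 0.05. The SE is the absolute log2 fold change over the square root of F. CPM used TMM factors, and for correlations they were put on the log2 scale with a prior count of 2. The alternatives tried were DESeq2 1.42.0 (the study's tool), limma-voom (limma 3.58.1), DESeq2 size factors, library totals, other filters, non-robust spread, 1 fit of 12 libraries, the replicate number as a block, leaving out each library or both striatal libraries numbered 2, and an adjusted p under 0.01. DESeq2 with the block and Pde2a summed with Gm45837 were added after the data were seen. The code was tested on simulated data. Tables and figures were made with Python 3.11.15, pandas 2.3.3, numpy 2.4.6 and matplotlib 3.10.9.

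Pairing was checked by correlating deviations from group means over the 10445 genes whose mean log2 CPM exceeded 3, and taken where all 3 numbers exceeded 0.1. Between R6/1 and wt striata, numbers 1, 2 and 3 gave 0.274, 0.329 and 0.257, and between R6/1 retina and R6/1 striatum 0.242, 0.119 and 0.179. Between R6/1 and wt retinas they gave 0.124, −0.094 and 0.051, and between wt retina and wt striatum −0.026, 0.019 and 0.00076, neither of which was taken as pairing. Unequal numbers reached at most −0.071, −0.042 and 0.240 between R6/1 and wt striata, so number 3 was hardly set apart. Between R6/1 and wt retinas they reached 0.175, 0.232 and 0.064, so unequal numbers could also exceed 0.1. The labels and methods do not say whether a number marks the same mice in both tissues, and the block changed no call of the 10 genes in either comparison of tissues.

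All 10 phosphodiesterases were named, with the other phosphodiesterases listed, up to 4 genes of each further list by smallest p and, for 4 of the 10, the 3 genes most correlated with each. The members and lists were chosen with earlier results of these data known, and 3 list genes are not reported here and were left out of sums and counts. Promoter windows came from the RefSeq table of GRCm38.p6.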

Additional observations from a re-analysis of the deposited data

Results flagged for a closer look

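Pde4d differed between tissues in its genotype effect, the retinal minus striatal difference being −0.55 on the log2 scale (SE 0.11, adjusted p = 0.00779 in edgeR over all genes), and it passed under all 22 alternatives (adjusted p 0.00086 to 0.0242). Its level was lower in R6/1 than in wt retinas and higher in R6/1 than in wt striata, in all 3 pools of each tissue. Within a single tissue neither genotype effect passed in edgeR without the block. Pde4d was called higher in striatum in 4 of 17 alternatives and lower in retina in 3 of 16.

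Pde3a, from the list of remaining phosphodiesterases, also differed between tissues (−0.82, SE 0.14, adjusted p = 0.00323), with R6/1 over wt ratios of 0.582, 0.635 and 0.690 in retina and 1.16, 0.937 and 1.36 in striatum for pools of equal number.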

How the results depend on the processing

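In the striatum the count of phosphodiesterases called lower in R6/1, 0 as reported, was 1 with library totals, limma-voom or non-robust spread, 3 in 1 fit of 12 libraries, 4 with DESeq2, 8 without both libraries numbered 2, and 0 to 3 with 1 library left out. With the replicate block it was 6, also with DESeq2. The count called higher, 0 as reported, was 1 with library totals, 1 fit of 12 libraries, the replicate block or without both libraries numbered 2. All genes called numbered 242 as reported, 429 with library totals, 982 with DESeq2, 1035 with DESeq2 and the block, 1300 in 1 fit of 12 libraries, 1663 with the block, 2662 without both libraries numbered 2, 7 at an adjusted p under 0.01, and 1 to 1916 with 1 library left out, the highest without wt striatum replicate 2. No striatal log2 fold change of the 10 genes changed sign.

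In the retina the count called lower, 2 as reported, was 4 with the replicate block (Pde8b and Pde4d added, although retinal numbers did not pair), 1 with DESeq2 (Pde4b), 1 with DESeq2 and the block (Pde8b), 0 with library totals or at an adjusted p under 0.01, and 0 to 2 with 1 library left out. The count called higher, 0 as reported, was 1 with library totals (Pde1a) and 0 to 1 with 1 library left out. Over all genes library totals called 3886 higher, against 1588 as reported. With library totals the log2 fold changes of Pde4a (0.052) and Pde7b (0.025) changed sign, and with 1 library left out Pde10a ranged between −0.56 and 0.20, being positive without wt retina replicate 3 and without R6/1 retina replicate 1 (0.10). All genes called numbered 3691, against 5331 with library totals, 2109 at an adjusted p under 0.01 and 1892 in DESeq2 with the block.

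For the difference between tissues, the count called higher, 0 as reported, was 1 with DESeq2 or the replicate block within tissue, 3 without both libraries numbered 2 and 0 to 1 with 1 library left out, and Pde8b ranged between −0.24 and 0.071, being positive without wt retina replicate 2. All genes called numbered 1296, against 442 at an adjusted p under 0.01, 2129 without both libraries numbered 2 and 767 to 1999 with 1 library left out. In both comparisons of tissues the counts stayed within 1.5 times, and of the 10 genes only Pde8b lost or gained a call. In these comparisons of tissues the replicate block changed no call of the 10 genes. With the union of exons, 20 of 40 ranks per kilobase moved.

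The spread between mice within a pool was not measured.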
